A study of Mus musculus with 8 samples.

Results

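The data described here are the 4 ERBB receptors (Egfr, Erbb2, Erbb3 and Erbb4) and 6 ligands of the EGF family (Areg, Ereg, Hbegf, Tgfa, Btc and Epgn) in bipotential mouse embryonic liver (BMEL) cells with and without ectopic GRHL2. The members were chosen by gene symbol, and all 10 of the 10 listed symbols were found among the 18671 genes of the expression table. BMEL is a cell line from embryonic mouse liver that can be differentiated into hepatocytes and cholangiocytes, and GRHL2 is an epithelial transcription factor. RNA was sequenced from 4 pIGrhl2 samples, transfected with a plasmid that encodes Flag-tagged human GRHL2 from an EEF1A1 promoter together with enhanced green fluorescent protein, and from 4 pcDNA samples, transfected with the empty pcDNA3 vector, so the groups differ by more than GRHL2. All cells grew in the same medium with 10% serum, insulin, IGFII and mouse EGF at 50 ng/mL and were harvested 48 h after transfection, so an EGFR ligand was present in both groups. The study describes the 4 samples of a group as independent biological replicates. All are from 1 cell line, transfection was transient, and in such bulk RNA the number of cells that took up the plasmid and the response per cell cannot be told apart.

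ERBB receptors are tyrosine kinases of the plasma membrane that signal as pairs. EGFR and ERBB4 bind ligands and carry active kinases, ERBB2 has no known ligand and serves as a partner of the others, and ERBB3 binds neuregulins but has a weak kinase and couples its partner to PI3K. The ligands are made as membrane-anchored precursors and are released by ADAM proteases. In the liver, EGFR ligands such as amphiregulin and TGF-alpha are known as growth factors for hepatocytes during regeneration.

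Values are on a log2 scale per kb of transcript. They were read as regularized log (rlog) values of DESeq2 less the log2 of transcript length, so a difference of 1 between samples is a 2-fold difference. The rlog pulls samples together when a gene has few reads, and differences of low genes are understated. A gene was called when its adjusted p was under 0.05 in limma over all 18671 genes. Grhl2 itself stood at 6.30, 6.96, 5.65 and 6.05 in pIGrhl2 replicates 1 to 4 and between 4.42 and 4.68 in the pcDNA samples. Reads of the human cDNA may be counted in it to an unknown extent. The liver epithelial markers Krt8, Krt18, Krt19, Krt7, Sox9, Hnf4a and Foxa2 had a summed level (log2 of the sum) between 16.86 and 17.01 in pIGrhl2 and between 16.67 and 16.85 in pcDNA samples, just without overlap, and 1 of these 7, Krt7, was called higher (3 with the replicate number as a block, with Sox9 and Krt19), where 10.5% of all genes were called higher without and 18.2% with the block. The 4 measured hepatocyte markers lay in sum between 8.42 and 8.57 in pIGrhl2 and between 8.59 and 8.70 in pcDNA samples, with 1 of them, Afp, a fetal hepatocyte protein, called lower in both fits, as were 5.91% of all genes without and 13.9% with the block. The 4 measured fibroblast and stellate markers lay in sum between 5.82 and 6.04 in pIGrhl2 and between 5.66 and 5.91 in pcDNA samples, and 1 of them, Pdgfrb, was called higher (adjusted p = 0.00886, limma; 2 with the block, with Col1a1). The 3 measured leukocyte markers lay between 4.76 and 4.94 in pIGrhl2 and between 4.72 and 4.97 in pcDNA samples, and the 4 endothelial markers between 4.31 and 4.44 and between 4.34 and 4.37, with 0 called in both lists. With the block the leukocyte marker Itgam was called lower and the endothelial markers Kdr and Tek higher. The part of these marker differences in the results below was not tested. Single members of these 3 lists ranged in pIGrhl2 samples from -0.12 (Pdgfrb) to 5.35 (Col1a1), from 0.88 (Ptprc) to 4.45 (Csf1r) and from 1.24 (Cdh5) to 3.25 (Pecam1). With its mean GENCODE M21 transcript length Pdgfrb had about 4.79 normalized reads per sample, so the size of its difference cannot be read from rlog values. Dlk1, Lrat and Adgre1 have no row in the table.

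GRHL2-transfected cells had higher transcript levels of Erbb3, by 2.64-fold, of Erbb2, by 1.26-fold, and of the ligand Tgfa, by 1.15-fold. Thus 3 of the 10 genes were called higher, where 10.5% of all genes were called higher, 5.91% lower and 16.4% in either direction, and 0 of the 10 were called lower. At an unadjusted p under 0.05, 0 of the 10 were lower either, beside 12.7% of all genes. With an equal upper quartile 4 of the 10 were called higher beside 16.4% of all genes, and with an equal sum 4 beside 15.6%. The groups did not overlap for 4 of the 10 genes, all higher, against 14.3% of all genes (23.8% in either direction). With the replicate number as a block, 4 of the 10 genes were called higher and 0 lower (32.1% of all genes in either direction), and 2, Egfr and Hbegf, were lower at an unadjusted p under 0.05, a share near that of all genes (18.3%). In 4 of 4 same-numbered pairs, 4 of the 10 genes were higher and 2 lower, beside 27.3% and 21.3% of all genes. The 7 genes other than Erbb3, Erbb2 and Tgfa, including the receptor Egfr and the abundant ligands Areg and Hbegf, did not pass the test without the block. The median log2 fold change was 0.19 over the 4 receptors and -0.036 over the 6 ligands, beside 0.0066 over all genes.

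**Figure D1:**
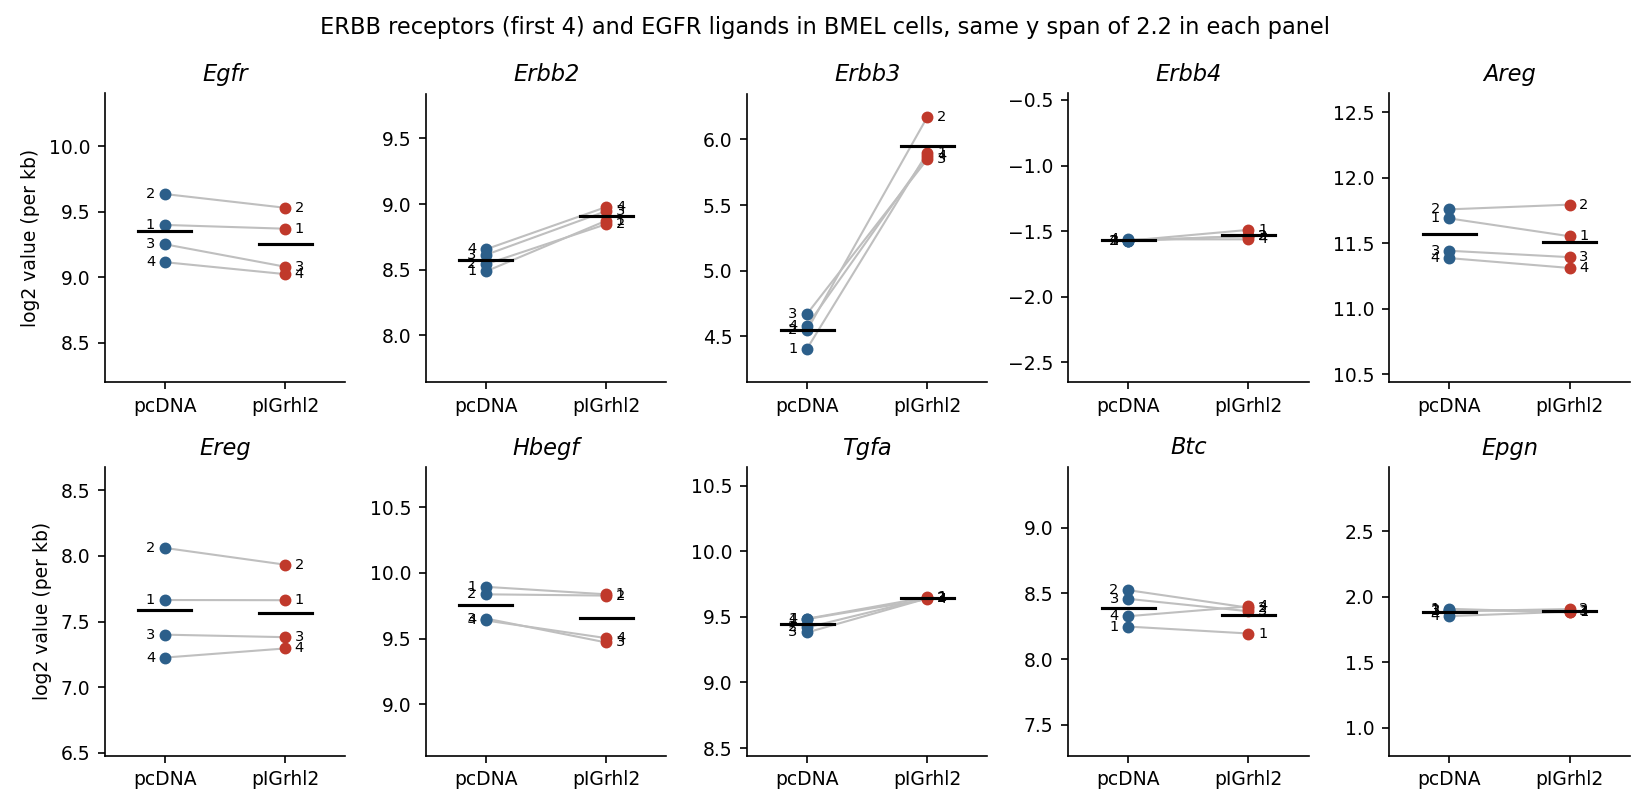
Log2 values per kb of the 10 genes in each pcDNA (blue) and pIGrhl2 (red) sample, with grey lines joining samples of the same replicate number, black bars for group means and the same vertical span in every panel. Only the points of Erbb3, Erbb2, Tgfa and, by a margin too small to see, Erbb4 do not overlap between groups, and Egfr, Areg, Ereg and Hbegf are ordered by replicate in both groups.

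Promoter windows were looked at for the genes whose levels differ or dominate. RefSeq promoter windows on GRCm38.p6 were matched for 7 of the 10 genes, and Erbb3, Ereg and Hbegf have no entry. The 250 bases before the start site are shown for the called receptor Erbb2, for the called ligand Tgfa and for Areg, the most abundant ligand, whose level did not pass the test. Capitals mark GC boxes (GGGCGG or CCGCCC) and the TATA box letters (TATAAA on the strand of the gene).
Erbb2, chr11:98412234-98412483, plus strand: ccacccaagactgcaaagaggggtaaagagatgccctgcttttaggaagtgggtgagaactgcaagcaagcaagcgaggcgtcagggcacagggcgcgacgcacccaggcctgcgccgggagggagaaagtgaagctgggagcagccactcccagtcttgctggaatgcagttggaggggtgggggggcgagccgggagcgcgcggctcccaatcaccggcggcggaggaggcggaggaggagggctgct
Tgfa, chr6:86194972-86195221, plus strand: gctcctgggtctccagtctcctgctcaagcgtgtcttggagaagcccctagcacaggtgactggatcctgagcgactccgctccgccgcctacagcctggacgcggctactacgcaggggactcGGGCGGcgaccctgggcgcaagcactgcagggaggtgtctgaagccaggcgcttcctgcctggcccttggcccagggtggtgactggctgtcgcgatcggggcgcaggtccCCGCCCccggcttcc
Areg, chr5:91139349-91139598, plus strand: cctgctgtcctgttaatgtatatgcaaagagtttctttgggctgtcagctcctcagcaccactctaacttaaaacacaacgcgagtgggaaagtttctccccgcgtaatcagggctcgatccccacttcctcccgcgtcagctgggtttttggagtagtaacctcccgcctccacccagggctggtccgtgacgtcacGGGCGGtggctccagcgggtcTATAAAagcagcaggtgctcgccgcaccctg
The Erbb2 window holds neither motif. The Tgfa window holds GC boxes that begin 126 and 15 bases before the start site and no TATA box. The Areg window holds 1 GC box 52 bases and 1 TATA box 31 bases before the start site. Of all 32851 windows of this length, 32.7% hold a GC box and 7.59% a TATAAA. The whole-site GRHL letters AACCNGTT and AACNGGTT, which are the same motif on opposite strands, were in 1.79% of all windows and in 0 of the 7 windows of these genes. Shorter parts of this motif were not searched for. The search says only that the whole-site letters are not in the 250 bases before the start.

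Among the receptors, Erbb3 showed the largest difference of the 10 genes. Erbb3 (ENSMUSG00000018166, GRCm38 chromosome 10, 128567523 to 128589652, minus strand) was measured at 5.90, 6.17, 5.85 and 5.88 in pIGrhl2 replicates 1 to 4. The pcDNA replicates 1 to 4 had 4.41, 4.55, 4.67 and 4.58. Every pIGrhl2 sample lay more than 1 log2 unit above every pcDNA sample, and replicate 2 was the highest of the pIGrhl2 samples. The log2 fold change was 1.40 (standard error 0.078, 95% interval 1.22 to 1.57, adjusted p = 2.14e-05, limma). In the order of all genes from the largest increase down, Erbb3 was in place 10 of 18671. The differences within same-numbered pairs were 1.49, 1.62, 1.18 and 1.30. For Grhl2 they were 1.61, 2.38, 1.23 and 1.61. The 4 pIGrhl2 samples had the same order from highest to lowest for Erbb3 and Grhl2 (replicates 2, 1, 4 and 3). The pcDNA samples had opposite orders, replicates 3, 4, 2 and 1 for Erbb3 and 1, 2, 4 and 3 for Grhl2. Apart from replicate 2, the pIGrhl2 values of Erbb3 lay within 5.85 to 5.90, and a relation to Grhl2 was not tested. Without pIGrhl2 replicate 2 the log2 fold change of Erbb3 was 1.32. Its mean level over all samples was at the 42.7th percentile of all genes.

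Erbb2, which encodes the receptor with no known ligand, was higher by a smaller but even step. Erbb2 (ENSMUSG00000062312, chromosome 11, 98412470 to 98437716, plus strand) had values of 8.87, 8.85, 8.95 and 8.98 in the pIGrhl2 samples and of 8.49, 8.54, 8.61 and 8.65 in the pcDNA samples. The groups did not overlap, and the pairs differed by 0.31 to 0.39. The log2 fold change was 0.34 (standard error 0.053, 95% interval 0.22 to 0.46, adjusted p = 0.00272, limma). Erbb2 shares 9 of its 5210 exonic bases (0.173%) with Mien1 on the opposite strand, and the counting ignored strand.

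Egfr, the receptor for EGF itself and for the 6 ligands described here, did not pass the test. Egfr (ENSMUSG00000020122, chromosome 11, 16752203 to 16918158, plus strand) had values of 9.37, 9.53, 9.08 and 9.02 in pIGrhl2 and of 9.40, 9.64, 9.25 and 9.12 in pcDNA samples. The groups overlapped almost entirely, whereas within pairs the pIGrhl2 sample was lower in 4 of 4, by 0.029 to 0.17, as it was for 21.3% of all genes. The log2 fold change was -0.099 (95% interval -0.40 to 0.20, adjusted p = 0.662, limma). With the replicate number as a block its interval was -0.18 to -0.014 and its adjusted p 0.0746. As a fold, the interval without the block was 0.76 to 1.15.

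Erbb4, the neuregulin receptor with its own kinase, was at the floor of the table. Erbb4 (ENSMUSG00000062209, chromosome 1, 68032186 to 69108059, minus strand) ranged from -1.56 to -1.49 in pIGrhl2 samples and from -1.57 to -1.56 in pcDNA samples, at the 0.38th percentile of gene levels. With its mean GENCODE M21 transcript length this corresponds to about 1.84 normalized reads per sample. The groups were apart by only 0.00056, between the replicates of number 4. The log2 fold change was 0.039 (adjusted p = 0.0692, limma). Blocking on the replicate number gave an adjusted p of 0.0374, and it was 0.0132 with an equal upper quartile and 0.00869 with an equal sum. At so few reads the size of this difference cannot be read from rlog values.

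The balance between receptor transcripts, compared per kb, therefore differed between the groups. Erbb2 exceeded Erbb3 by 4.08, 3.99, 3.94 and 4.07 log2 units in the pcDNA samples and by 2.97, 2.68, 3.10 and 3.10 in the pIGrhl2 samples. Egfr exceeded Erbb2 by 0.91, 1.09, 0.64 and 0.46 in the pcDNA samples and by 0.50, 0.68, 0.14 and 0.048 in the pIGrhl2 samples. Egfr was thus still the highest of the receptors in all 8 samples, but in pIGrhl2 replicate 4 its level per kb was nearly that of Erbb2. These gaps rest on the same values as the tests above and were not tested again. They also rest on transcript lengths averaged by the authors over all transcripts of a symbol.

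**Figure D2:**
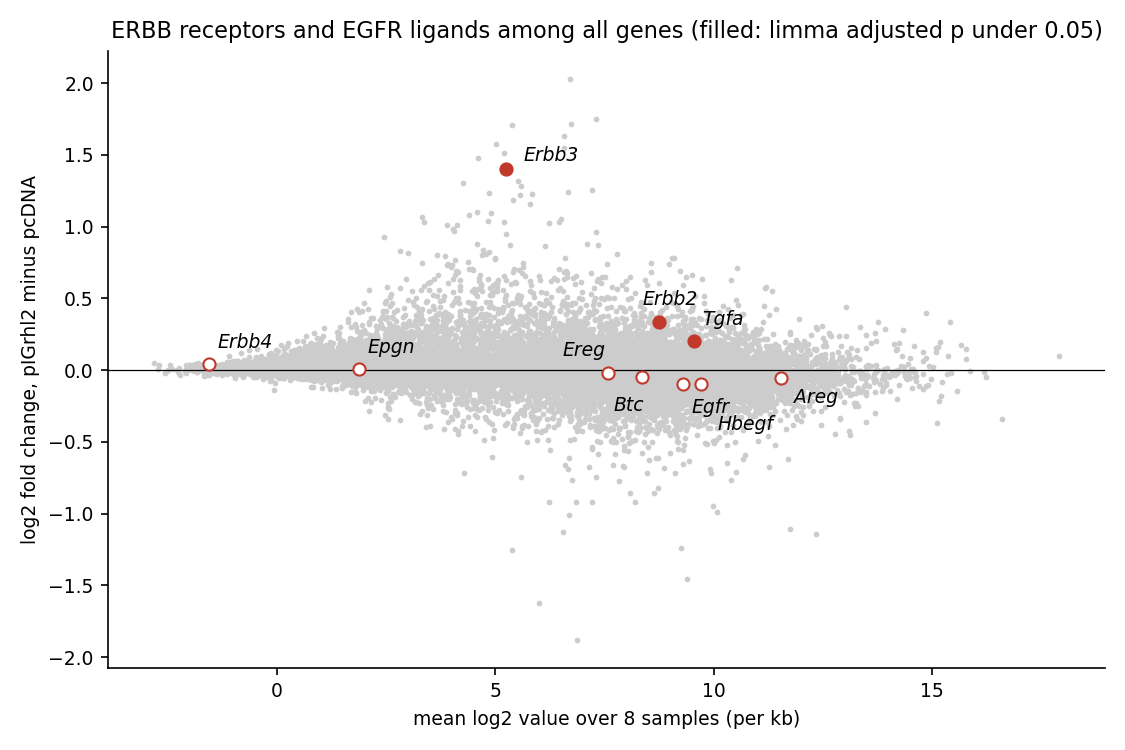
Log2 fold change (pIGrhl2 minus pcDNA) against mean log2 value per kb for all 18671 genes (grey) and the 10 genes (red circles, filled where limma called them). Erbb3 at 1.40 stands among the largest increases of the table, Erbb2 and Tgfa lie within the upper part of the cloud, and Erbb4 sits at its low end where all differences are small.

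Of the ligands, Tgfa alone passed the test. Tgfa (ENSMUSG00000029999, chromosome 6, 86195223 to 86275719, plus strand), which encodes the EGFR ligand TGF-alpha, had values of 9.65, 9.64, 9.64 and 9.63 in pIGrhl2 samples. In pcDNA samples it had 9.49, 9.42, 9.38 and 9.48. The pIGrhl2 samples were all higher and differed from each other by little (SD 0.0063, n = 4), against an SD of 0.051 (n = 4) in pcDNA. The log2 fold change was 0.20 (standard error 0.043, 95% interval 0.10 to 0.30, adjusted p = 0.0121, limma). Tgfa shares 118 of its 6490 exonic bases (1.82%) with Gm43917, which has no row in the table.

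Areg, which encodes amphiregulin, was the most abundant of the 10 transcripts per kb and did not pass the test. Areg (ENSMUSG00000029378, chromosome 5, 91139599 to 91148432, plus strand) had values of 11.55, 11.79, 11.39 and 11.31 in pIGrhl2 samples and of 11.69, 11.76, 11.44 and 11.39 in pcDNA samples. The groups overlapped, and the spread between replicates was several times the difference. The log2 fold change was -0.056 (95% interval -0.31 to 0.20, adjusted p = 0.786, limma).

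Hbegf, which encodes heparin-binding EGF-like growth factor, had values of 9.84, 9.83, 9.47 and 9.50 in pIGrhl2 samples and of 9.89, 9.84, 9.65 and 9.64 in pcDNA samples. Its log2 fold change was -0.096 (95% interval -0.32 to 0.13, adjusted p = 0.564, limma). The pIGrhl2 sample was lower in 4 of 4 pairs, by 0.0096 to 0.18, and blocking on the replicate number gave an adjusted p of 0.0985. Epiregulin, encoded by Ereg (ENSMUSG00000029377, chromosome 5, 91074622 to 91093646, plus strand), had the widest spread of the 10 genes. Ereg ran from 7.29 to 7.93 in pIGrhl2 and from 7.23 to 8.06 in pcDNA samples. Its difference of -0.020 (95% interval -0.43 to 0.39, adjusted p = 0.961, limma) turned to 0.0029 with an equal upper quartile and to 0.0044 with an equal sum, so that it has no stable direction. Ereg shares 141 of its 4128 exonic bases (3.42%) with Gm19610, which has no row in the table.

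Btc, which encodes betacellulin, a ligand of both EGFR and ERBB4, ran from 8.19 to 8.40 in pIGrhl2 and from 8.25 to 8.53 in pcDNA samples. Its log2 fold change was -0.052 (95% interval -0.21 to 0.11, adjusted p = 0.680, limma). Epgn, which encodes epigen, was near the floor, from 1.88 to 1.91 in pIGrhl2 and from 1.85 to 1.91 in pcDNA samples, or about 4.75 normalized reads per sample. Its log2 fold change was 0.0046 (95% interval -0.036 to 0.046, adjusted p = 0.896, limma). Epgn, Ereg, Areg and Btc are neighbours on chromosome 5, between 91027464 and 91402994, and Tgfa lies on chromosome 6. Of these 4 neighbours 0 were called, beside 16.4% of all genes in either direction, and so few genes cannot be set apart from that share.

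**Figure D3:**
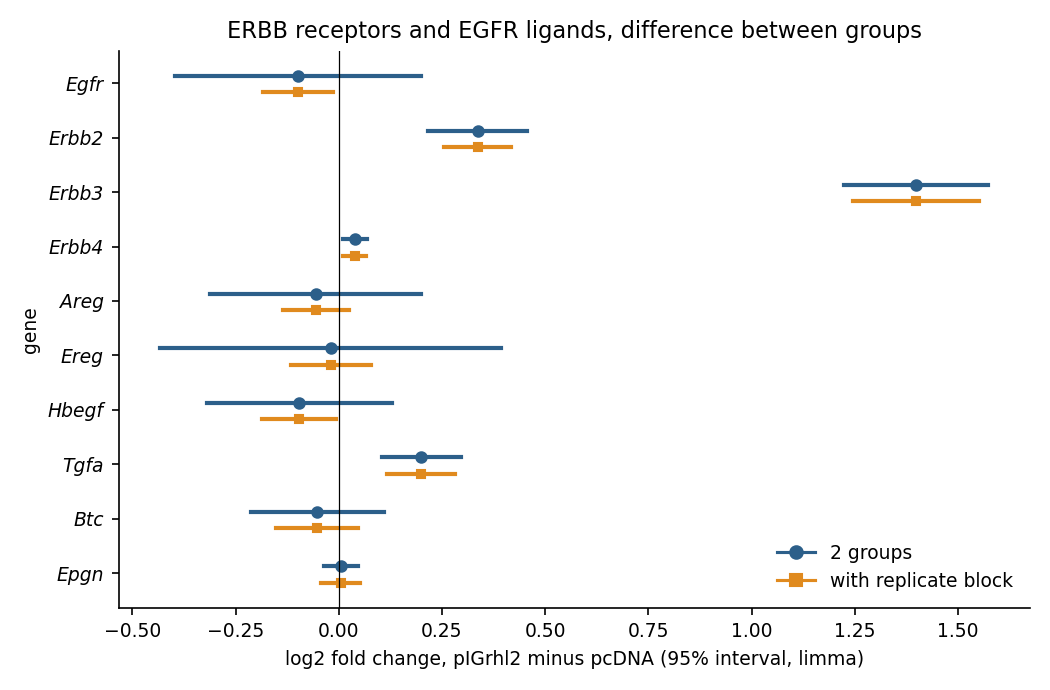
Log2 fold change (pIGrhl2 minus pcDNA) of each gene with its 95% interval from limma, for the fit of 2 groups (blue circles) and for the fit with the replicate number as a block (orange squares). The intervals of Erbb3, Erbb2, Tgfa and, narrowly, Erbb4 lie above 0 in both fits, those of Egfr and Hbegf lie below 0 with the block alone, and those of Egfr, Areg, Ereg and Hbegf are far narrower with the block (standard error of Ereg 0.043 against 0.19).

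In the order of levels per kb, the control cells had Areg first, at 11.57 ± 0.18 (SD, n = 4), and Hbegf next, at 9.76 ± 0.13 (SD, n = 4). Tgfa at 9.44 ± 0.051 (SD, n = 4) and Egfr at 9.35 ± 0.22 (SD, n = 4) followed, and their ranges overlapped. Erbb2 at 8.57 ± 0.075 (SD, n = 4) and Btc at 8.39 ± 0.13 (SD, n = 4) overlapped too. Ereg stood at 7.59 ± 0.36 (SD, n = 4), Erbb3 at 4.55 ± 0.11 (SD, n = 4), Epgn at 1.89 ± 0.024 (SD, n = 4) and Erbb4 at -1.57 ± 0.0049 (SD, n = 4), and their ranges did not overlap. The order per kb rests on averaged transcript lengths. By estimated normalized reads per sample, Egfr (1864) was above Hbegf (1591) and Tgfa (1472). The pIGrhl2 cells kept the order of means per kb. In them, Hbegf at 9.66 ± 0.20 (SD, n = 4) and Tgfa at 9.64 ± 0.0063 (SD, n = 4) were no longer apart, with Hbegf above Tgfa in 2 of 4 samples, while Tgfa was above Egfr and Erbb2 above Btc in 4 of 4 samples without overlap of their ranges.

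The replicates fell into 2 sets for 4 of the 10 genes, the receptor Egfr and 3 of the 6 ligands. Egfr, Areg, Ereg and Hbegf were higher in replicates 1 and 2 than in replicates 3 and 4 in both groups without overlap, as were 18% of all genes. The mean of replicates 1 and 2 exceeded that of replicates 3 and 4 by 0.55 for Ereg in pcDNA and by 0.46 in pIGrhl2 samples. For Egfr these differences were 0.33 and 0.40, for Areg 0.31 and 0.32, and for Hbegf 0.22 and 0.35. Erbb2 went the other way, at -0.12 and -0.10, and Tgfa had only 0.020 and 0.0082, Btc -0.0064 and -0.090, and Epgn 0.024 and 0.0050. For Egfr, Areg, Ereg and Hbegf, these differences exceeded those between the plasmids. The reverse order, with replicates 1 and 2 below in both groups, held for 13.4% of all genes and for Erbb2. The labels name no batch, and what replicates 1 and 2 share was not tested. Within replicates 1 and 2 the difference between pIGrhl2 and pcDNA was 1.56 for Erbb3, 0.35 for Erbb2 and 0.19 for Tgfa, and within replicates 3 and 4 it was 1.24, 0.33 and 0.21.

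**Figure D4:**
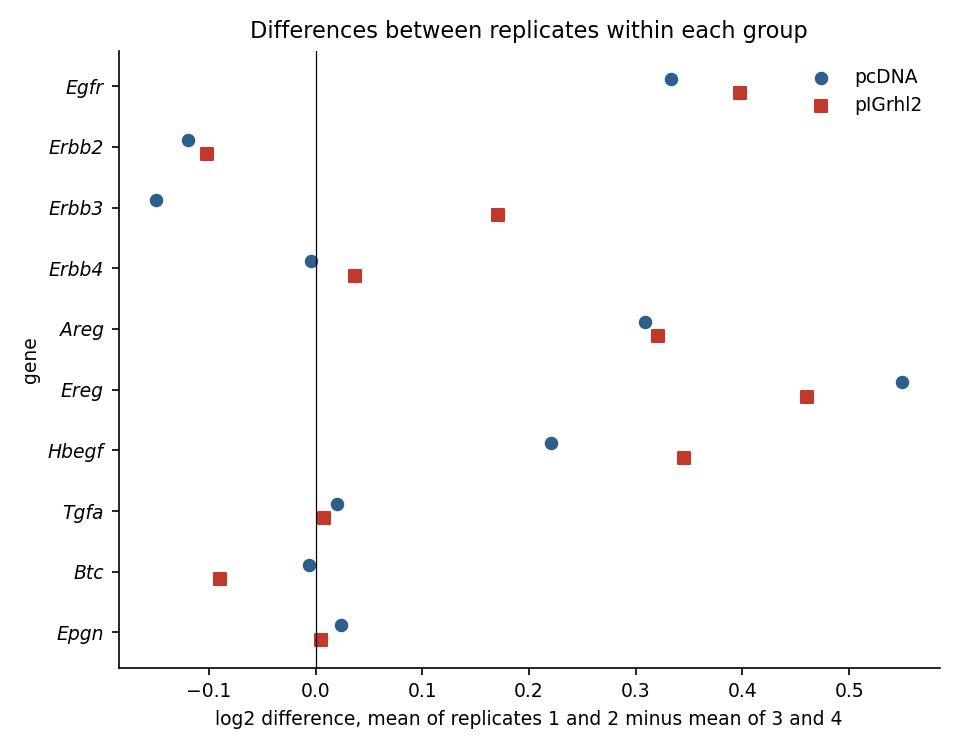
Mean of replicates 1 and 2 less the mean of replicates 3 and 4, in log2 units, for each gene in pcDNA (blue circles) and pIGrhl2 samples (red squares). Egfr, Areg, Ereg and Hbegf lie between 0.22 and 0.55 in both groups, whereas Erbb3 had opposite signs in the groups (-0.15 in pcDNA and 0.17 in pIGrhl2).

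Among the genes whose values over the 8 samples were most like those of Erbb3, by the root mean square difference of gene-centred values, were Il17re (0.13) and Spint1 (0.13), with log2 fold changes of 1.32 and 1.18. For Tgfa the nearest were Srgap3 (0.026), 6330403L08Rik (0.029) and Gas2l1 (0.031). A small distance is common for Tgfa, since 5085 genes lay within 0.1 of it.

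The rest of the pathway was described by 6 lists with 56 of 58 genes measured. Of these, 8 were called higher and 1 lower, beside 10.5% and 5.91% of all genes, with a median log2 fold change of 0.019. With the replicate block 17 were higher and 9 lower, where 18.2% and 13.9% of all genes were. Of EGF and the neuregulins, 4 of 5 were measured and 0 were called by limma, nor was any at an adjusted p under 0.05 with an equal sum or upper quartile. Nrg1, a ligand of ERBB3 and ERBB4, was at 8.23 in pIGrhl2 and 8.43 in pcDNA samples, a difference of -0.20 (adjusted p = 0.292, or 0.00477 with the replicate block). Egf had a difference of -0.13 (adjusted p = 0.122, or 0.0469 with the block) and Nrg2 one of 0.14 (adjusted p = 0.241, or 0.0486 with the block), and Nrg4 one of 0.030 (adjusted p = 0.584).

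Of the 8 genes for shedding of the ligands, 4 were called higher and 1 lower, beside 10.5% and 5.91% of all genes. Adam12, a protease that can cleave HB-EGF, rose from 6.93 to 7.30 (log2 fold change 0.37, adjusted p = 0.00791, limma), by 0.53 within replicates 1 and 2 and 0.20 within replicates 3 and 4. Rhbdf1 and Rhbdf2 encode the iRhoms, partners that carry ADAM17 to the cell surface, and they went in opposite directions. Rhbdf1 rose from 9.66 to 10.01 (0.35, adjusted p = 0.00895) and Rhbdf2 fell from 9.01 to 8.82 (-0.19, adjusted p = 0.0185), each without overlap of the groups. Rhbdl2, a rhomboid protease, rose by 0.27 (adjusted p = 0.0235), and Frmd8, a further iRhom partner that is named here after its values were seen, by 0.16 (adjusted p = 0.0433). The call of Frmd8 was lost without any 1 of the 8 samples, with adjusted p from 0.0523 to 0.120. That of Rhbdl2 was lost in 4 of 8 cases, without pcDNA replicates 1, 2 or 4 or pIGrhl2 replicate 4 (0.0535 to 0.0621), and that of Rhbdf2 in 2, without pcDNA replicate 3 (0.0550) or pIGrhl2 replicate 1 (0.0531). Adam17 and Adam10, the main sheddases of these ligands, had differences of 0.033 (adjusted p = 0.803) and 0.014 (adjusted p = 0.914).

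Of 9 measured receptor inhibitors and ubiquitin ligases, 1 was called higher and 0 lower, a share of higher genes near that of all genes (10.5%). Cblc, an epithelial member of the CBL ubiquitin ligases, rose from 3.58 to 3.80 (0.22, adjusted p = 0.00303, limma). Cblc had only about 12.6 normalized reads per sample, so the rlog may understate the size of this difference. With the block, Errfi1, whose product inhibits the EGFR kinase, and Cblb were called lower, with differences of -0.24 (adjusted p = 0.308 without and 9.39e-04 with the block) and -0.23 (0.0906 and 0.00513). None of the 14 adaptors and RAS-ERK core genes was called by limma in either direction, from Braf at -0.17 to Mapk3 at 0.14. Over all genes 16.4% were called in either direction. With the block 2 of them, Shc1 and Mapk3 (0.0122), were called higher and 1, Gab1, lower, beside 18.2% and 13.9% of all genes. In the PI3K-AKT arm, Pik3r3, a regulatory subunit of PI3K, rose from 6.41 to 6.80 (0.39, adjusted p = 0.00589, limma). The other 6 measured genes listed for this arm, where the share called was near that of all genes (16.4%), were not called without the block. With it, Pik3r2, a further regulatory subunit, was called higher (0.21, adjusted p = 0.215 without and 0.00172 with the block) and Pik3cb, a catalytic subunit, lower (-0.15, 0.422 and 0.0357).

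Of 14 genes that ERK induces early or as feedback, 2 were called higher and 0 lower, beside 10.5% and 5.91% of all genes. Egr1, an immediate early transcription factor, stood at 7.73 in pIGrhl2 and 5.70 in pcDNA samples (adjusted p = 0.00124, limma), and Spred1, an inhibitor of RAS-ERK signalling, rose by 0.18 (adjusted p = 0.0356). The call of Spred1 was lost in 6 of 8 cases of 1 sample left out, all but pcDNA replicate 4 and pIGrhl2 replicate 2 (0.0585 to 0.103). Egr1 was measured at 8.04, 8.38, 7.25 and 7.23 in pIGrhl2 replicates 1 to 4 and at 6.06, 6.02, 5.37 and 5.34 in the pcDNA replicates, without overlap, and was higher in replicates 1 and 2 than in 3 and 4 in both groups. Of the other immediate early genes, Fos had a difference of -0.23 (adjusted p = 0.449) and Fosl1 one of -0.41 (adjusted p = 0.147), and with the block these 2 genes were called lower (0.00989 and 6.98e-04), while Ier3, at 0.12 (adjusted p = 0.503), was called higher (0.0492). With the block 7 genes of this list were called higher and 2 lower, beside 18.2% and 13.9% of all genes, among the higher ones the feedback genes Dusp6 at 0.22 (0.0679 without and 0.00153 with the block) and Spry2 at 0.22 (0.119 and 0.0167).

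**Figure D5:**
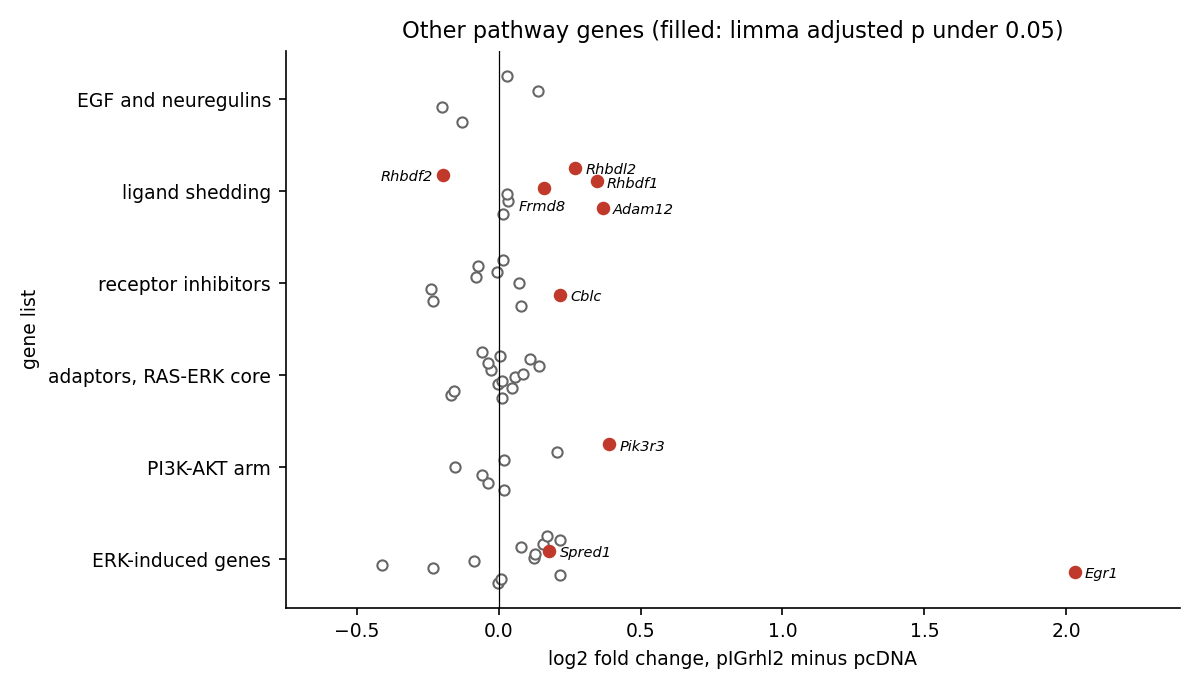
Log2 fold change (pIGrhl2 minus pcDNA) of each measured gene in 6 lists of pathway genes, with filled and named points for genes called by limma and open points for the others. Egr1 stands alone at 2.03, the shedding list holds 5 called genes, and no gene of the RAS-ERK core is filled. Of all genes, 16.4% were called in either direction.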

How the data were processed

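The study sequenced total RNA of 8 BMEL samples, 4 per plasmid, grouped by their titles. The authors deposited 1 table of log2 values for 18671 genes. Per the methods and the submitters' processing notes, reads were mapped to mm10 with HISAT2 (2.2.1 in the notes), counted on exons without regard to strand with HTSeq 0.9.1, filtered for at least 10 cumulated reads, transformed with the rlog of DESeq2 (1.40.2 in the notes) and divided by the mean transcript length per symbol (GRCm39). That this covers the BMEL samples is an assumption, since the methods open with public data. The table is named for FPKM, but 4.81% of its values are below 0. With the log2 of the GENCODE M21 length in kb added, the 1st percentile of the values was 0.30 to 0.39 across 5 classes of gene length, close to the 0.32 of 10 reads over 8 samples. Read totals cannot be recovered, so depth is unknown, and reads per gene are estimates.

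All genes were tested with limma 3.58.1 in R 4.3.3 (2 groups, mean-variance trend, Benjamini-Hochberg adjustment). The exact permutation test over samples, two-sided, can reach no less than p = 0.0286 with 4 against 4, and gave it for Erbb3, Erbb2, Tgfa and Erbb4. The script was tested on simulated data. Same-numbered samples deviated together from their group means (Pearson's r across genes 0.474 to 0.645 for every pair, against -0.611 to 0.602 for different numbers). Deviations from a group mean cancel within the group, which pulls r for different numbers down. Much of the pattern also sets replicates 1 and 2 apart from 3 and 4, and within these sets different numbers gave 0.344 to 0.602. These values therefore cannot settle the pairing. The replicate numbers of the labels were taken as pairs, although pIGrhl2 replicate 3 was closer to pcDNA replicate 4 (0.602) than to pcDNA replicate 3 (0.549). The fit with the replicate block is drawn for all 10 genes in a figure. In the text it is given where it changes the call of 1 of the 10 genes or of a gene named, and as counts for the lists. It is also given for Egfr, Hbegf and Afp, whose calls it does not change. Other alternatives were 2 scalings, no trend, a mean value of at least 3, each sample left out, and replicates 1 and 2 apart from 3 and 4.

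The genes and lists were chosen with earlier results of these data known. Named were Grhl2, the 10 genes, EGF and the neuregulins, up to 3 called increases and 3 called decreases per list, and genes among the 3 nearest patterns of the most changed receptor and ligand. Genes named for the block were chosen after their values were seen. Some genes of these lists are not reported here. Positions are those of GENCODE M21 (GRCm38) by symbol.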

Additional observations from a re-analysis of the deposited data

Results flagged for a closer look

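Of 20 groups of 4 samples (10 genes in each plasmid group), 1 held a sample far from the others by Dixon's criterion, and chance gives about 1. It was Erbb3 in pIGrhl2 replicate 2, at 6.17 against 5.85 to 5.90 in the other 3, a gap of 0.85 of the range. The same sample had the highest Grhl2 value (6.96), and a relation between the 2 genes was not tested. Without this sample the log2 fold change of Erbb3 was 1.32.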

How the results depend on the processing

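Erbb3, Erbb2 and Tgfa were called higher in each of the alternatives run that gave a test, with adjusted p-values from 6.92e-06 to 3.06e-04, from 2.85e-04 to 0.0114 and from 0.00356 to 0.0386. The values within replicates 1 and 2 and within 3 and 4 carry no test, and for Erbb3 they were 1.56 and 1.24. With 1 sample left out, 3 to 4 of the 10 genes were called higher and 0 lower, and the log2 fold changes ran from 1.32 to 1.44 for Erbb3, from 0.31 to 0.36 for Erbb2 and from 0.18 to 0.21 for Tgfa. Erbb4 became the further call with the replicate block, with either scaling and without pIGrhl2 replicate 4 (0.0252). Its adjusted p ran from 0.00869 to 0.277. The sign of 3 genes that were not called turned. Areg, from -0.15 to 0.011 with 1 sample left out, was at 0.0071 without pcDNA replicate 2 and at 0.011 without pIGrhl2 replicate 4. Epgn, from -0.0068 to 0.012, was at -0.0068 without pcDNA replicate 4 and at -0.00042 without pIGrhl2 replicate 2. Ereg was at 0.0029 with an equal upper quartile, at 0.0044 with an equal sum, and from -0.14 to 0.14 with 1 sample left out (positive without pcDNA replicates 1 or 2 or pIGrhl2 replicates 3 or 4).

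Over all genes, 1957 were called higher and 1104 lower. With the replicate block these were 3396 and 2589, with an equal upper quartile 3064 were higher, and with a mean value of at least 3 (fewer genes tested) 1154 were. With 1 sample left out they ran from 1326 to 1848 and from 690 to 1036, lowest for the lower genes without pcDNA replicate 1 or pIGrhl2 replicates 1, 3 or 4. Higher genes made up 63.9% of calls, 75.9% with an equal upper quartile, 77.0% with an equal sum and 52.7% with the minimum of 3. The scalings moved the median of all genes by 0.023 and 0.024. For the pathway lists, the replicate block gave 17 higher and 9 lower against 8 and 1. Leaving out 1 sample gave 5 to 8 higher and 0 to 3 lower, with 5 higher without pcDNA replicates 1 or 2, 0 lower without pcDNA replicate 3 or pIGrhl2 replicate 1, and 3 lower without pIGrhl2 replicate 2. The causes were not tested. The replicate block changed no call of the 10 genes other than that of Erbb4. Depth is unknown, and the rlog understates differences of genes with few reads such as Erbb4 and Epgn.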
